A study of Mus musculus with 22 samples.

Results

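The RNA levels of 10 genes of the Polycomb repressive complexes were followed in primary adult mouse hippocampal neural stem cells whose O-GlcNAc transferase (OGT) had been lowered with a hairpin RNA or blocked with a drug. The 10 members were taken by gene symbol, as subunits of these complexes: Ezh1, Ezh2, Eed, Suz12, Jarid2, Rbbp4, Rbbp7, Bmi1, Ring1 and Rnf2. All 10 were found among the 24411 genes of each deposited table. OGT is the enzyme that attaches N-acetylglucosamine to nuclear and cytosolic proteins, and the study asked what its loss does to these cells. RNA was sequenced from 22 libraries in 4 groups. ShOgt (5 libraries) received lentivirus encoding a hairpin against Ogt and ShLuc (6 libraries) a hairpin against luciferase, both at 10 viral particles per cell for 3 days before RNA extraction. OSMI-1 (5 libraries) received the OGT inhibitor OSMI-1 at 12.5 µM for 24 h, and Vehicle (6 libraries) an equal volume of DMSO. All cells grew in medium with EGF and bFGF on poly-D-lysine and laminin. Each knockdown library was compared with ShLuc libraries and each OSMI-1 library with Vehicle libraries, within the table that holds both.

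Polycomb proteins keep developmental genes silent through 2 kinds of complex. Polycomb repressive complex 2 (PRC2) methylates histone H3 and is built from a catalytic subunit, EZH1 or EZH2, together with EED, SUZ12 and the histone-binding proteins RBBP4 or RBBP7, with JARID2 as an accessory subunit. Polycomb repressive complex 1 (PRC1) ubiquitinates histone H2A through RING1 or RNF2 (also called RING1B) paired with a PCGF protein such as BMI1. In neural stem cells Polycomb activity is known for sustaining self-renewal and for timing the switch between neuronal and glial fates, and OGT itself is the mammalian homologue of the Drosophila Polycomb gene super sex combs.

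Depth was 7.22 to 13.2 M reads per library for the knockdown and 4.52 to 12.8 M for the inhibitor. The top of the inhibitor range was OSMI-1 4 alone, and every other library of that arm had at most 5.93 M. Levels below are normalized counts, that is gene counts divided by a size factor of the library, and values of the 2 arms are not on one scale. The knockdown was visible in its target. Ogt had 348.7 to 524.4 normalized counts in ShOgt libraries, against 737.1 to 1004 in ShLuc libraries (log2 fold change -0.98 ± 0.11 SE, limma adjusted p = 1.1e-06). Summed neural stem cell markers (7 genes, among them Nes and Fabp7) ran from 33336 to 38944 in ShOgt and 36816 to 41704 in ShLuc, and from 17159 to 18882 in OSMI-1 and 22330 to 26743 in Vehicle. Sox2, a defining marker, was low, at 58.7 ± 11.9 in ShOgt, 65.6 ± 21.3 in ShLuc, 58.9 ± 12.3 in OSMI-1 and 61.8 ± 12.9 in Vehicle. Summed microglial and endothelial markers stayed at or below 20.6 in every library, and oligodendrocyte markers at or below 40.2. The 5 neuronal markers summed to 2818 to 3213 in ShOgt and 3236 to 3943 in ShLuc, and to 2074 to 2968 in OSMI-1 and 1710 to 2220 in Vehicle. Nearly all of that was Map2 and Tubb3, which were called in both arms (Map2 -0.39 after knockdown and 0.39 after OSMI-1, Tubb3 0.77 and -0.80), while the defining markers Dcx and Rbfox3 averaged at most 1.97 and 6.56 in any group. The 4 astrocyte markers summed to 3092 to 4040 in ShOgt and 2887 to 3244 in ShLuc, and to 1773 to 2055 in OSMI-1 and 1369 to 1621 in Vehicle. After OSMI-1 their sums did not overlap and S100b (1.28, limma adjusted p = 2.5e-05) and Aldh1l1 (0.31, adjusted p = 0.00175) rose, while Gfap averaged at most 19.1 and Aqp4 at most 1.58 in any group. The part of these markers in the members' changes was not tested. On principal components of all genes, ShOgt 3, ShLuc 1, ShLuc 3, OSMI-1 5 and Vehicle 1 stood apart from their groups, and results that change without these 5 libraries are given with both values. Whether the replicates are separate cultures is not stated in the labels, so p-values reflect only the variation among these libraries, which could be technical.

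Per length of transcript, the histone-binding subunits led and Suz12 and Ring1 came last in every group. Counts were divided by the kilobases of each gene's longest coding transcript in GENCODE. In ShOgt the order of mean levels was Rbbp7 (2119 normalized counts per kb), Rbbp4 (575), Rnf2 (181), Eed (119), Jarid2 (104), Ezh2 (57.4), Bmi1 (51.2), Ezh1 (47.5), Suz12 (6.26) and Ring1 (2.74). In ShLuc the mean of Ezh2 stood above that of Jarid2 (76.4 and 73.0 per kb, with overlapping ranges), and Ezh1 was at 25.5 per kb. The ranges over libraries overlapped between the neighbours Eed and Jarid2, Ezh2 and Bmi1, Bmi1 and Ezh1, and Suz12 and Ring1 in ShOgt, and did not overlap between the other neighbours there. In OSMI-1 Rbbp7 stood at 1168 per kb, Ezh2 at 33.1, Ezh1 at 16.2, Suz12 at 11.4 and Ring1 at 2.72. In Vehicle the same genes stood at 1464, 60.7, 13.3, 10.1 and 1.79 per kb. Ezh1 and Suz12 overlapped in both OSMI-1 and Vehicle. The transcripts the authors counted over are not given in the sources used here, so the lengths are approximate.

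Knockdown of Ogt was accompanied by a rise of Ezh1 and Jarid2 and a fall of Rbbp4. Ezh1 averaged 199.7 ± 47.3 normalized counts in ShOgt and 107 ± 34.7 in ShLuc (SD, n = 5 and 6), and Jarid2 averaged 624 ± 104 in ShOgt and 438 ± 66.2 in ShLuc. Rbbp4 averaged 2534 ± 224 in ShOgt and 3233 ± 148 in ShLuc. Of the 10 members 9 passed the low-count filter, of which 2 rose, 1 fell and 6 were not called at a limma adjusted p of 0.05 over all genes tested. Over all 12136 genes tested, 31.8% were called (15.4% higher and 16.4% lower), and the median log2 fold change of the 9 members was 0.03, beside 0.01 over all genes tested. In 1 member, Rbbp4, the groups did not overlap, against 18.8% of all genes tested (8.83% with ShOgt higher and 9.96% with ShOgt lower). The members' share of calls was thus near the background. In bulk RNA, fewer cells of a type and less RNA per cell cannot be told apart.

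After OSMI-1, 4 PRC2 genes fell and none rose. Ezh2 averaged 92.2 ± 7.72 normalized counts in OSMI-1 and 169 ± 29.9 in Vehicle, and Eed averaged 133 ± 20.0 in OSMI-1 and 190 ± 28.1 in Vehicle (SD, n = 5 and 6). Rbbp4 averaged 1428 ± 146 in OSMI-1 and 1844 ± 143 in Vehicle, and Rbbp7 averaged 2620 ± 161 in OSMI-1 and 3285 ± 117 in Vehicle. Of the 9 members that passed the filter, 4 were called, all of them lower, and 5 were not called. Over all 11349 genes tested, 24.8% were called, 11.6% higher and 13.2% lower. The median log2 fold change was -0.11 over the 9 members and 0.00 over all genes tested. In 3 members (Ezh2, Eed and Rbbp7) the groups did not overlap, against 14.0% of all genes tested (6.27% with OSMI-1 higher and 7.71% with OSMI-1 lower). For lower calls and for groups without overlap, the members' counts lie above these shares, and no test of the list was made. The members were chosen with earlier results of these data known, so these counts cannot show how unusual the list is.

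**Figure D1:**
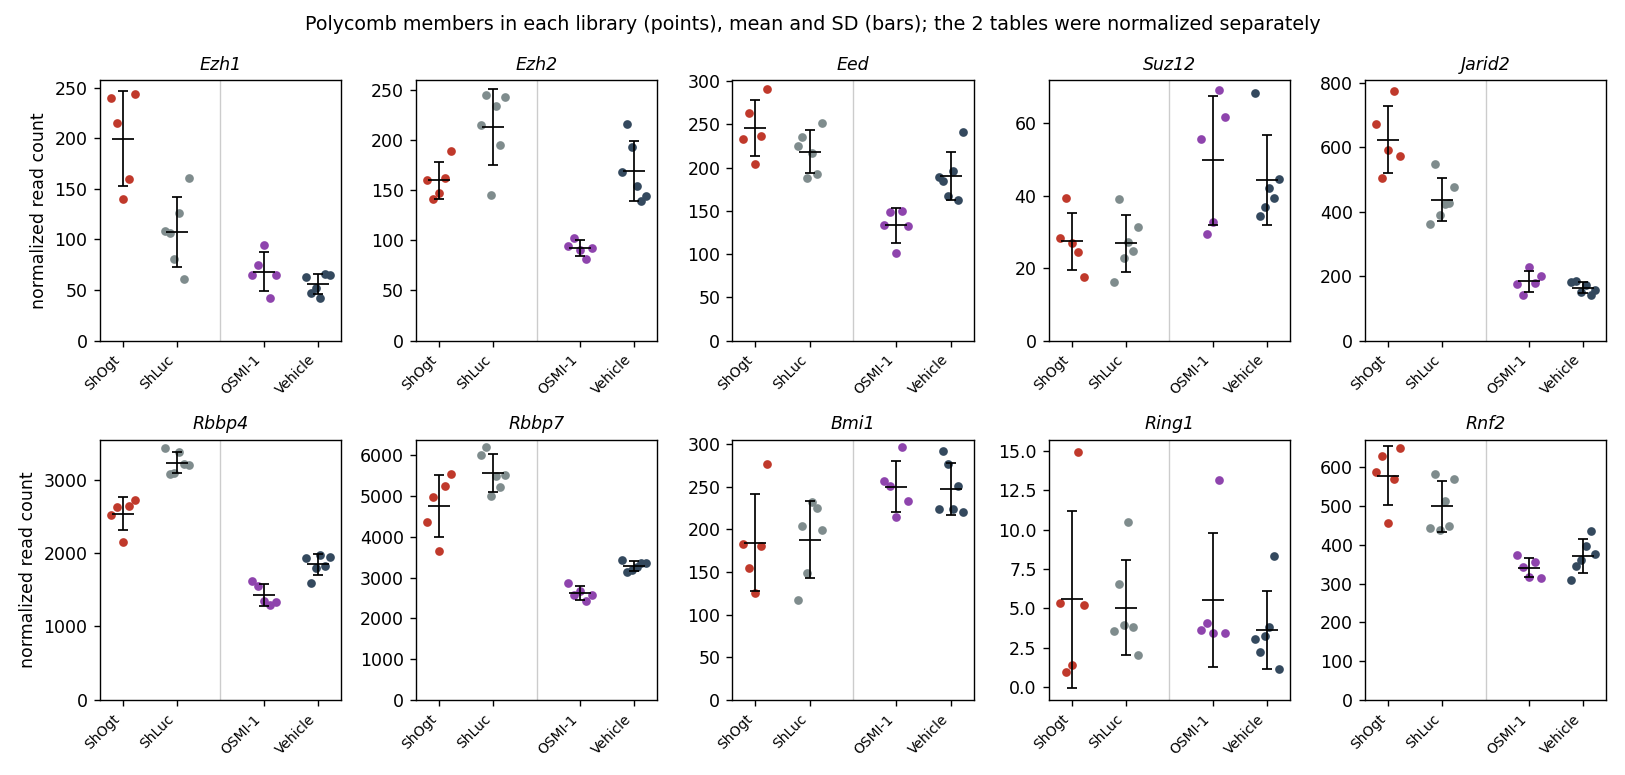
Normalized counts of the 10 members in each library (points, y axis, one panel per gene with its own linear scale), with the group mean and SD as bars, for ShOgt, ShLuc, OSMI-1 and Vehicle. Ezh2 lies between 81.1 and 102.4 in OSMI-1, below every Vehicle library, and Ring1 lies below 15 in every library. The 2 arms were normalized separately.

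Of the 2 catalytic subunits, Ezh1 rose after knockdown and Ezh2 fell after OSMI-1. Ezh1 encodes the catalytic subunit typical of resting and differentiated cells, and it lies on the minus strand at chr11:101191115-101226463 (GRCm38). Its 5 ShOgt libraries had 240.1, 215.0, 139.8, 160.1 and 243.5 normalized counts, against 108.2, 106.3, 81.1, 126.4, 60.7 and 160.3 in the 6 ShLuc libraries. The 3 highest ShOgt libraries lay above every ShLuc library, while ShOgt 3 and ShOgt 5 lay below ShLuc 6, so the groups overlapped. The log2 fold change was 0.92 ± 0.22 SE (limma adjusted p = 0.00334), a 1.89-fold rise. In the inhibitor arm Ezh1 had 64.7, 75.0, 94.2, 41.8 and 65.3 normalized counts in OSMI-1, against 63.3, 46.7, 52.2, 42.1, 65.6 and 64.6 in Vehicle. OSMI-1 libraries were spread on both sides of the Vehicle libraries, and the difference was not called (0.26 ± 0.21, adjusted p = 0.390).

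Ezh2 encodes the catalytic subunit typical of dividing progenitors, and lies on the minus strand at chr6:47530139-47595341. OSMI-1 libraries had 94.8, 102.4, 89.9, 81.1 and 92.8 normalized counts, against 168.5, 215.7, 193.6, 153.9, 139.6 and 144.6 in Vehicle. Every OSMI-1 library lay below every Vehicle library. The log2 fold change was -0.86 ± 0.14 SE (limma adjusted p = 6.4e-05), and its adjusted p ran from 4.1e-08 to 0.000524 over the 19 alternatives. In the knockdown arm Ezh2 had 160.1, 141.1, 146.8, 162.2 and 189.4 normalized counts in ShOgt, against 214.7, 245.3, 145.7, 234.0, 195.5 and 242.9 in ShLuc. All ShOgt libraries lay below 5 of the 6 ShLuc libraries, and ShLuc 3 lay among them. With all libraries the difference missed the threshold (-0.40 ± 0.15, adjusted p = 0.0529). Without ShLuc 3 it was -0.50 (adjusted p = 0.00897), without ShOgt 6 -0.46 (0.0375), without the 3 libraries of this arm that stand apart -0.49 (0.0163), and edgeR and DESeq2 on all libraries gave adjusted p of 0.0467 and 0.0338. The authors' deposited DESeq2 result lists an adjusted p of 0.0391 for it. Of the 19 alternatives only 5 called the difference, and its limma adjusted p reached 0.122.

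**Figure D2:**
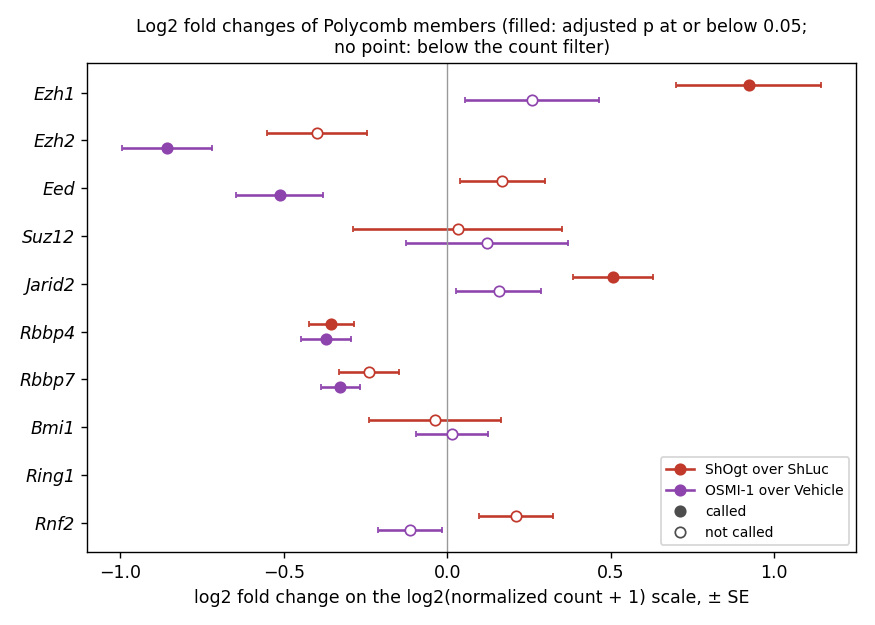
Log2 fold change (x axis, on the log2(normalized count + 1) scale, bars ± SE) of the 9 members that passed the low-count filter (y axis) for ShOgt over ShLuc and OSMI-1 over Vehicle, filled where the limma adjusted p was at or below 0.05. Ezh1 and Jarid2 are filled on the right for the knockdown only, Ezh2, Eed and Rbbp7 on the left for OSMI-1 only, and Rbbp4 on the left for both. Ring1, below the filter, has no point.

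The balance of the 2 catalytic transcripts, taken as the ratio of their counts within a library, moved towards Ezh1 in both arms. Each ratio was taken after adding 1 to both normalized counts, so the size factor of the library bears on it slightly, most for low counts. Ezh1 over Ezh2 was 1.50, 1.52, 0.952, 0.987 and 1.28 in ShOgt libraries, against 0.506, 0.436, 0.560, 0.542, 0.314 and 0.661 in ShLuc libraries. It was 0.686, 0.735, 1.05, 0.521 and 0.707 in OSMI-1 libraries, against 0.379, 0.220, 0.273, 0.278, 0.474 and 0.451 in Vehicle libraries. The groups did not overlap in either arm. In 3 of the 5 ShOgt libraries and 1 of the 5 OSMI-1 libraries (OSMI-1 4, the deepest), Ezh1 counts exceeded Ezh2 counts. Counts are not corrected for length, and the longest coding transcript has 4207 bases for Ezh1 and 2787 for Ezh2. Per kb, mean Ezh1 lay below mean Ezh2 in ShOgt (47.5 and 57.4) and in OSMI-1 (16.2 and 33.1). The mean log2 ratio was 0.29 ± 0.32 in ShOgt and -1.03 ± 0.37 in ShLuc, a difference of 1.32 (exact permutation test over 462 splits, two-sided, p = 0.00216, the smallest these libraries can give; 0.0173 adjusted over 8 ratio tests). It was -0.47 ± 0.36 in OSMI-1 and -1.59 ± 0.45 in Vehicle, a difference of 1.12 (exact permutation p = 0.00433, adjusted 0.0173). Without the libraries that stand apart the differences were 1.47 and 1.27, with adjusted p of 0.114 and 0.0635 from exact tests on 8 and 9 libraries. Before adjustment these exact tests gave p = 0.0286 and 0.00794, the smallest that so few libraries can give. The other 3 within-library ratios (Rbbp7 over Rbbp4, Ring1 over Rnf2 and Pcgf2 over Bmi1) had adjusted p between 0.150 and 0.524 in the 2 arms.

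**Figure D3:**
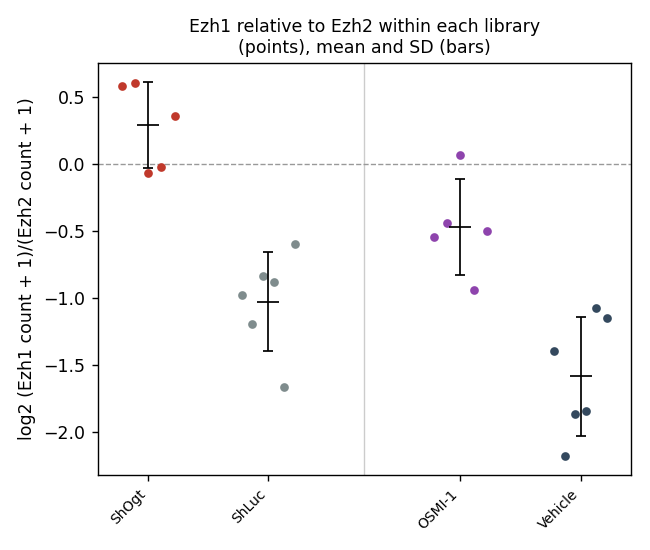
Log2 ratio of Ezh1 to Ezh2 (y axis, each count + 1) in each library (points) of ShOgt, ShLuc, OSMI-1 and Vehicle, with group mean and SD as bars. The ShOgt points lie between -0.07 and 0.60, all above ShLuc, and the OSMI-1 points between -0.94 and 0.07, all above Vehicle.

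The promoters of the 2 catalytic genes are shown because the ratio of their transcripts changed. Each is the RefSeq window from 250 bases before to 50 bases after the transcription start (build GRCm38.p6), read on the gene's own strand. Capitals mark matches, on either strand, to an E2F-type motif (TTTCCCGC, TTTCGCGC, TTTGCCGC or TTTGGCGC) and to CCAAT.
Ezh2, chr6:47594981-47595280, minus strand: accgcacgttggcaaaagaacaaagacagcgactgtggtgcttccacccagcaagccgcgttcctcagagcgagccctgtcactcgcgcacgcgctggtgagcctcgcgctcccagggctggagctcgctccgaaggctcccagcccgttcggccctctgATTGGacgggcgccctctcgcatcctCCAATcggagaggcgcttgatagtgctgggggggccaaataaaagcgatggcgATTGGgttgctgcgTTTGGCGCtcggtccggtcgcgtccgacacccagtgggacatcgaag
Ezh1, chr11:101226414-101226713, minus strand: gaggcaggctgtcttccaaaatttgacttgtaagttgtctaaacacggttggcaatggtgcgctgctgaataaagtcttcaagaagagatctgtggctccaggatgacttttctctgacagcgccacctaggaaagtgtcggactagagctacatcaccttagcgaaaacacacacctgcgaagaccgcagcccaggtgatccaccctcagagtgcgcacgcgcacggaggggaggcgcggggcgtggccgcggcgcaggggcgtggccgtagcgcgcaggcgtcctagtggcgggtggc
The Ezh2 window held 1 E2F-type match, beginning 3 bases after the start, and 3 CCAAT matches, at -90, -64 and -11. The Ezh1 window held neither, and neither window held the letters TTTGAA on either strand. Of the 32851 RefSeq promoter windows, 2.26% held an E2F-type match, 37.4% CCAAT, 3.37% at least 3 CCAAT matches, 17.9% TTTGAA, and 0.14% both an E2F-type match and at least 3 CCAAT matches. The minimum of 3 equals the count in the Ezh2 window, so the shares that use it do not measure how unusual that window is. Of the 11955 windows of genes tested here, 3.94% held an E2F-type match, 38.1% CCAAT and 11.6% TTTGAA. Suz12 was the only other member with an E2F-type match, 219 bases before its start. CCAAT also occurred in windows of Eed, Suz12, Jarid2, Rbbp4 and Rbbp7, and TTTGAA in those of Eed and Suz12. These are matches of letters, not measured sites.

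Of the genes for the scaffold subunits EED and SUZ12, which hold the catalytic subunit active, only Eed was called, after OSMI-1. Eed (chr7:89954654-89980983, minus strand), whose protein binds the methylated histone, had 133.1, 149.0, 100.7, 150.3 and 132.9 normalized counts in OSMI-1, against 188.9, 184.5, 167.5, 196.0, 162.3 and 241.0 in Vehicle. Every OSMI-1 library lay below every Vehicle library (-0.51 ± 0.13 SE, limma adjusted p = 0.0065). In the knockdown arm Eed averaged 246 ± 32.8 in ShOgt and 218 ± 24.8 in ShLuc, with overlapping groups (0.17 ± 0.13, adjusted p = 0.351). Eed was the only one of 9 members whose change differed between the arms, by 0.68 log2 units (knockdown minus inhibitor, 95% interval 0.30 to 1.05, adjusted p = 0.00583 over 11269 genes, of which 23.9% were called).
Suz12 (chr11:79993106-80034123, plus strand) was low throughout, with 17 to 42 reads per library in the hairpin-treated cells and 29 to 76 in the inhibitor arm. It averaged 27.4 ± 7.9 normalized counts in ShOgt and 26.9 ± 7.84 in ShLuc, and 49.8 ± 17.8 in OSMI-1 and 44.3 ± 12.3 in Vehicle. Neither difference was called (0.03 ± 0.32, adjusted p = 0.951, and 0.12 ± 0.25, adjusted p = 0.767). The 95% intervals of -0.63 to 0.70 log2 units after knockdown and -0.39 to 0.63 after OSMI-1 are wide at this depth. The OSMI-1 interval overlaps that of Eed (-0.79 to -0.24), and the 2 genes were not tested against each other.

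Both histone-binding subunits, which PRC2 shares with other chromatin complexes, fell after OSMI-1, and Rbbp4 fell in both arms. Rbbp4 (chr4:129307100-129335370, minus strand) had 2516.9, 2628.8, 2157.0, 2643.2 and 2725.9 normalized counts in ShOgt, against 3435.2, 3080.8, 3085.6, 3383.2, 3209.5 and 3203.6 in ShLuc. No ShOgt library reached the lowest ShLuc library (-0.35 ± 0.07 SE, limma adjusted p = 0.000563). In the inhibitor arm it had 1618.6, 1549.9, 1343.5, 1294.7 and 1332.2 in OSMI-1, against 1934.1, 1594.2, 1792.3, 1976.1, 1820.8 and 1948.8 in Vehicle. OSMI-1 1 lay just above Vehicle 2, and the other OSMI-1 libraries lay below all Vehicle libraries (-0.37 ± 0.08, adjusted p = 0.000823). The 2 changes differed by 0.02 log2 units, with a 95% interval of -0.19 to 0.22.
Rbbp7 (chrX:162760402-162779092, plus strand), the most abundant member per length, had 2856.2, 2571.8, 2681.4, 2422.2 and 2570.4 normalized counts in OSMI-1, against 3431.2, 3128.4, 3185.6, 3247.6, 3357.5 and 3359.2 in Vehicle. The groups did not overlap (-0.33 ± 0.06, adjusted p = 0.000279). In the knockdown arm it averaged 4754 ± 752 in ShOgt and 5567 ± 460 in ShLuc, and the difference missed the threshold (-0.24 ± 0.09, adjusted p = 0.0507). It passed with a pseudocount of 5 (adjusted p = 0.0471), without ShOgt 5 (0.0379), without ShOgt 6 (0.0176) and without ShLuc 3 (0.0352), but not without the 3 libraries that stand apart (-0.16, 0.103). This knockdown difference was called in 5 of the 19 alternatives, and the authors' deposited DESeq2 result lists an adjusted p of 0.0579. The Rbbp7 transcript shares 1.87% of its 100-base windows with Gm6382.

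Jarid2, the accessory subunit that helps recruit PRC2 to chromatin, rose in the knockdown arm. The gene (chr13:44729474-44921643, plus strand) had 673.3, 506.0, 590.1, 775.8 and 574.3 normalized counts in ShOgt, against 360.5, 546.6, 390.6, 423.2, 428.0 and 477.8 in ShLuc. Only ShOgt 2 fell within the ShLuc range (0.51 ± 0.12 SE, limma adjusted p = 0.00345). In the inhibitor arm it averaged 185 ± 32.5 in OSMI-1 and 164 ± 17.8 in Vehicle (0.16 ± 0.13, adjusted p = 0.409). The difference between the arms was not called (0.35, 95% interval -0.01 to 0.71, adjusted p = 0.156), and neither was that of Ezh1 (0.66, 0.05 to 1.27, adjusted p = 0.109) or Ezh2 (0.46, 0.04 to 0.87, adjusted p = 0.101).

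None of the 3 PRC1 members was called in either arm. Rnf2 (chr1:151458004-151500955, minus strand), the main E3 ligase of the complex, averaged 578 ± 75.2 normalized counts in ShOgt and 499 ± 65.7 in ShLuc (0.21 ± 0.11, adjusted p = 0.167), and 341 ± 25.6 in OSMI-1 and 371 ± 43.6 in Vehicle (-0.11 ± 0.10, adjusted p = 0.426). Without ShOgt 3 its knockdown change passed (0.29, adjusted p = 0.0433) and so did its difference between the arms (0.41, adjusted p = 0.0344, against 0.33 and 0.110 with all libraries). Without the 5 libraries that stand apart the difference between the arms was 0.39 (adjusted p = 0.0451). Bmi1 (chr2:18677018-18686629, plus strand), a PCGF subunit needed for stem cell self-renewal, averaged 184 ± 56.7 in ShOgt and 188 ± 45.2 in ShLuc, and 250.1 ± 30.4 in OSMI-1 and 248 ± 30.5 in Vehicle. Its log2 fold changes were -0.04 ± 0.20 (adjusted p = 0.912) and 0.02 ± 0.11 (adjusted p = 0.943), and 7.21% of its 100-base windows are shared with Gm5946. Ring1 (chr17:34020792-34024680, minus strand), the paralogue of Rnf2, stayed below the filter with 1 to 14 reads per library under the hairpins and 1 to 11 in the inhibitor arm. It averaged 5.58 ± 5.62 in ShOgt and 5.05 ± 3.02 in ShLuc, and 5.54 ± 4.25 in OSMI-1 and 3.65 ± 2.48 in Vehicle, so that a difference was not detectable at this depth. Exons of Ezh2, Eed, Suz12, Rbbp4, Rbbp7 and Rnf2 overlap exons of a gene on the other strand in GENCODE, and the strand setting of the authors' counting is not given in the sources used here, so reads from such pairs cannot be told apart.

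Most proliferation markers fell in both arms. Of 8 proliferation markers 7 fell in each arm and E2f1 was not called, with a median log2 fold change of -0.90 after knockdown and -1.02 after OSMI-1. Their summed level ran from 9282 to 11525 normalized counts in ShOgt and 17894 to 20907 in ShLuc, and from 4310 to 4754 in OSMI-1 and 9047 to 10484 in Vehicle. Mki67, a marker of cycling cells, averaged 636 ± 122 in ShOgt and 1286 ± 155 in ShLuc, and 287 ± 49.0 in OSMI-1 and 738 ± 170 in Vehicle. The part of proliferation in the changes of the members was not tested.

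The other Polycomb genes were read from a list of 50 accessory subunits, PRC1 paralogues, OGT partners and enzymes that remove Polycomb marks. In the knockdown arm 47 were tested, of which 7 rose and 8 fell (median log2 fold change 0.06), with 31.8% of all genes called. In the inhibitor arm 44 were tested, of which 5 rose and 4 fell (median 0.04), with 24.8% of all genes called. The change differed between the arms in 14 of the 43 tested in both, 7 in each direction, against 23.9% of all genes. Ogt, the hairpin's own target, is on this list. It is counted among the genes that fell after knockdown, rose after OSMI-1 and differed between the arms.

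Among PRC2 accessory genes, Aebp2 and Mtf2 rose in the knockdown arm. Aebp2, which stabilises the complex on chromatin, averaged 147 ± 10.4 normalized counts in ShOgt and 92.9 ± 11.9 in ShLuc (0.67 ± 0.15, limma adjusted p = 0.00253), and 106 ± 35.3 in OSMI-1 and 109 ± 16.2 in Vehicle (adjusted p = 0.794). All 5 ShOgt libraries lay above all ShLuc libraries. Mtf2, a Polycomb-like protein that brings PRC2 to CpG islands, averaged 227 ± 48.4 in ShOgt and 156 ± 21.4 in ShLuc (0.52 ± 0.16, adjusted p = 0.0163, and 0.0565 without ShOgt 6). Lcorl, whose locus also encodes a PRC2-associated protein, fell in the knockdown arm (-0.78 ± 0.26, adjusted p = 0.0245) and rose after OSMI-1 (0.52 ± 0.16, adjusted p = 0.0176, and 0.0570 without OSMI-1 6).

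Among PRC1 genes the largest called change in the knockdown arm was that of Scmh1, a SAM-domain Polycomb protein. It had 612.8, 541.5, 574.5, 705.3 and 695.0 normalized counts in ShOgt, against 329.2, 286.3, 313.4, 362.6, 356.8 and 326.6 in ShLuc. Every ShOgt library lay above every ShLuc library (0.92 ± 0.10, limma adjusted p = 1.75e-06), while OSMI-1 averaged 198 ± 26.6 and Vehicle 189 ± 18.1 (adjusted p = 0.770). Cbx8, a chromodomain reader of methylated histone H3, averaged 334 ± 37.7 in ShOgt and 201 ± 25.3 in ShLuc (0.73 ± 0.13, adjusted p = 0.000181). Yaf2, a subunit of variant PRC1 (0.32 ± 0.10, adjusted p = 0.0155, and 0.0509 without ShOgt 5), and Scml4 (0.44 ± 0.16, adjusted p = 0.0380) also rose. Scml4 lost its call under 7 of the 11 single libraries left out (adjusted p up to 0.0924, without ShLuc 4) without the libraries that stand apart (0.0834), with no low-count filter (0.0529) and in edgeR (0.0551).
Cbx6, another chromodomain protein, averaged 642 ± 36.1 in ShOgt and 868 ± 65.5 in ShLuc (-0.43 ± 0.08, adjusted p = 0.000488), and L3mbtl2, of a variant PRC1, averaged 688 ± 75.3 in ShOgt and 932 ± 54.8 in ShLuc (-0.44 ± 0.09, adjusted p = 0.000624). L3mbtl2 also fell after OSMI-1, to 248 ± 46.5 against 336 ± 41.4 in Vehicle (-0.45 ± 0.12, adjusted p = 0.00816). Phc1, a polyhomeotic subunit (-0.45 ± 0.16, adjusted p = 0.0333), and Kdm2b, which tethers variant PRC1 to CpG islands (-0.35 ± 0.11, adjusted p = 0.0219), fell in the knockdown arm. Phc1 lost its call without ShOgt 2 (-0.29, adjusted p = 0.111), ShLuc 1 (0.0507), ShLuc 5 (0.0624) or ShLuc 6 (0.0617), and Kdm2b without ShOgt 1 (0.0664) or ShOgt 5 (0.0716). After OSMI-1, Phc3 averaged 407 ± 22.5, against 323 ± 18.3 in Vehicle (0.33 ± 0.08, adjusted p = 0.00573). Cbx2 and Pcgf5, named after their values were seen, fell after OSMI-1 (-0.85 ± 0.22, adjusted p = 0.00677, and -0.98 ± 0.26, adjusted p = 0.00656), at group means under 100 normalized counts.

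Some genes of OGT partners and of enzymes that remove Polycomb marks were called, while Bap1, Kdm6a, Usp16 and Asxl1 were called in neither arm. Hcfc1, which encodes a transcriptional co-regulator that OGT glycosylates and cleaves, averaged 628 ± 60.5 in ShOgt and 884 ± 122 in ShLuc (-0.49 ± 0.11, limma adjusted p = 0.00179), and 489 ± 64.9 in OSMI-1 and 635 ± 48.1 in Vehicle (-0.38 ± 0.09, adjusted p = 0.0031). Ogt itself averaged 599.9 ± 42.5 in OSMI-1 and 455 ± 37.6 in Vehicle, a rise of 0.40 ± 0.08 (adjusted p = 0.00104). Foxk2, a forkhead factor that binds the BAP1 deubiquitinase, averaged 228 ± 32.2 in ShOgt and 321 ± 31.2 in ShLuc (-0.50 ± 0.12, adjusted p = 0.00385).
Kdm6b, a histone H3 demethylase that opposes PRC2, averaged 214 ± 24.0 in ShOgt and 118 ± 30.3 in ShLuc (0.88 ± 0.18, adjusted p = 0.000825), with no overlap, and 127 ± 7.96 in OSMI-1 and 130 ± 19.8 in Vehicle (adjusted p = 0.957). Asxl2, the BAP1 cofactor, had 242.4, 251.4, 315.4, 268.5 and 226.8 normalized counts in OSMI-1, against 166.5, 166.8, 156.6, 130.0, 168.2 and 175.1 in Vehicle. Every OSMI-1 library lay above every Vehicle library (0.69 ± 0.12, adjusted p = 9.4e-05). Mysm1, a histone H2A deubiquitinase, averaged 291 ± 55.1 in OSMI-1 and 217 ± 52.3 in Vehicle (0.43 ± 0.15, adjusted p = 0.0347), a call lost without OSMI-1 2, 5 or 6 or without Vehicle 1, 3, 4 or 5 (adjusted p up to 0.103) and without the libraries that stand apart (0.156).

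**Figure D4:**
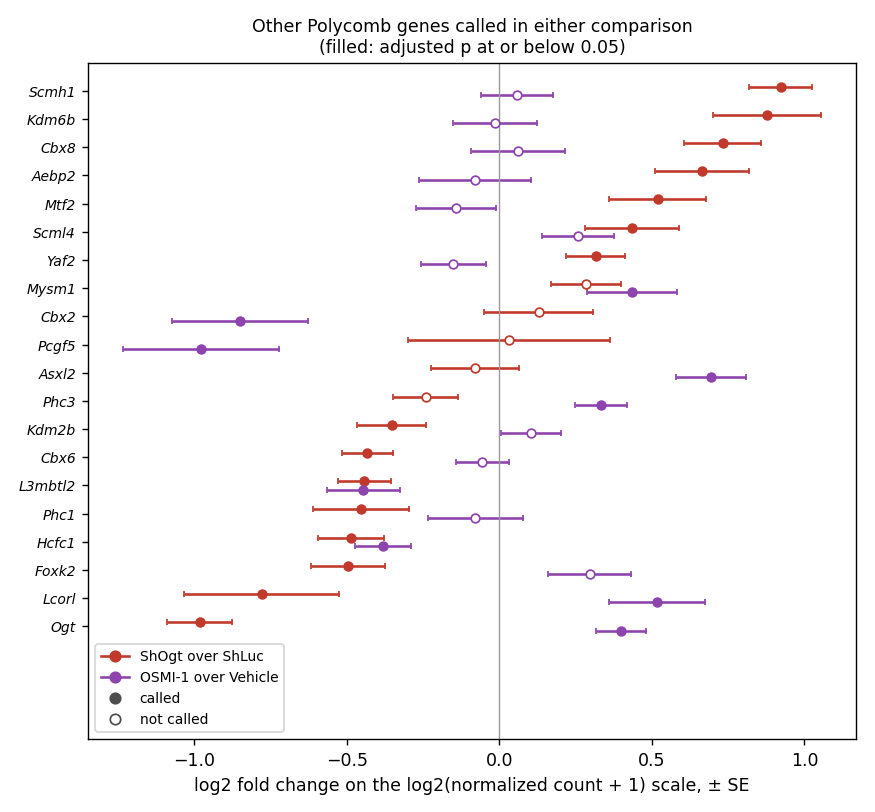
Log2 fold change (x axis, on the log2(normalized count + 1) scale, bars ± SE) of the other Polycomb genes called in at least 1 arm (y axis) for ShOgt over ShLuc and OSMI-1 over Vehicle, filled where the limma adjusted p was at or below 0.05. Scmh1, Kdm6b and Cbx8 lie farthest right for the knockdown, Asxl2 for OSMI-1, and Ogt lies at -0.98 for the knockdown and 0.40 for OSMI-1.

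Classical Polycomb targets were mostly silent in these cells. Of 59 listed, among them Hox and lineage genes, 46 had a mean under 1 normalized count in the knockdown table and 49 in the inhibitor table, and 25 and 44 were at 0 in every library of the arm. The filter left 7 and 6 for testing, and 1 rose in each arm, beside 15.4% and 11.6% of all genes tested. That gene was Cdkn2b (chr4:89306299-89311039, minus strand), which encodes a cell cycle inhibitor. It had 805.8, 721.1, 701.6, 752.3 and 702.3 normalized counts in ShOgt, against 310.4, 336.7, 366.2, 321.8, 345.4 and 316.5 in ShLuc (1.14 ± 0.09, limma adjusted p = 2.0e-08). It had 276.1, 338.6, 321.5, 262.5 and 258.9 in OSMI-1, against 160.3, 179.0, 199.0, 236.1, 218.3 and 238.6 in Vehicle (0.51 ± 0.12, adjusted p = 0.00292). The groups did not overlap in either arm, and the change was larger after knockdown by 0.63 log2 units (adjusted p = 0.00148). Cdkn2a, its neighbour and another classical target, averaged 47.5 ± 14.0 in ShOgt and 47.7 ± 18.1 in ShLuc (adjusted p = 0.983), and 17.4 ± 5.42 in OSMI-1 and 23.5 ± 11.8 in Vehicle (adjusted p = 0.464).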

How the data were processed

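Per the file headers, each deposited table holds normalized counts per library (a signal: counts divided by a size factor), and, per gene, the authors' log2 fold change, standard error, test score and p-values. STAR, RSEM and DESeq2 are the tools, and hg38 the build, in the submitters' processing notes, although the tables carry mouse symbols. The labels' protocols describe a strand-specific poly(A) kit, the design text Smart-Seq2. Whole reads were recovered (100% of values within 0.001 of a whole number). No pair of libraries agreed within sampling noise (smallest chi-square per degree of freedom 5.73 and 3.63).

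Genes kept by filterByExpr (minimum count 10, minimum total 15) were tested within each table by limma 3.58.1 (trend over mean level) on log2(normalized count + 1), which understates changes of low genes. Benjamini-Hochberg adjustment ran over all genes tested, with calls at 0.05, two-sided. Differences between arms used both fits (Satterthwaite degrees of freedom). Alternatives were pseudocounts of 0.5 and 5, no filter, TMM scaling, edgeR 4.0.16, DESeq2 1.42.0, a replicate block and left-out libraries. The fits and the difference between arms were tried on simulated counts. Named were all 10 members, Ogt, Hcfc1, Cdkn2a, and listed genes called with a mean of at least 100. The members and lists were chosen with earlier results of these data known. Positions are from GENCODE vM21 (GRCm38) and promoters from RefSeq, which matched all 10 members. Intervals of single levels are not given, and depth limits mainly Ring1 and Suz12.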

Additional observations from a re-analysis of the deposited data

Results flagged for a closer look

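Of 110 groups of library values examined, 11 had a highest or lowest library far from the rest by Dixon's test, and chance gives about 1 in 20. In the members these were Suz12 in Vehicle 1 (68.4 normalized counts, the others 34.5 to 44.7), and Ring1 in OSMI-1 5 (13.1, the others 3.44 to 4.05) and Vehicle 5 (8.35, the others 1.18 to 3.82). OSMI-1 5 also stood apart in the log2 ratio of Ring1 to Rnf2 (-4.66, the others -6.34 to -6.09), and ShLuc 2 in that of Rbbp7 to Rbbp4 (1.01, the others 0.69 to 0.81). Among the other genes they were Phc1 in ShOgt 2 (102 normalized counts), Ogt in ShLuc 2 (1004), Hcfc1 in ShLuc 4 (643), Cdkn2a in ShLuc 1 (83.2) and Vehicle 2 (46.7), and L3mbtl2 in Vehicle 5 (415).

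The change differed between the arms (knockdown minus inhibitor, adjusted over 11269 genes) in 15 named genes. Eed was the only member, at 0.68 (adjusted p = 0.00583). Higher in the knockdown than in the inhibitor arm were the changes of Kdm6b (0.89, adjusted p = 0.00292), Scmh1 (0.86, 4.9e-05), Aebp2 (0.75, 0.0193), Cbx8 (0.67, 0.0116), Mtf2 (0.66, 0.0162), Cdkn2b (0.63, 0.00148) and Yaf2 (0.47, 0.0141). Cbx2, outside the rule for named genes and named after its values were seen, differed by 0.98 (adjusted p = 0.00979). Lower in the knockdown arm were those of Ogt (-1.38, adjusted p = 3.5e-10), Lcorl (-1.30, 0.00147), Foxk2 (-0.79, 0.00103), Asxl2 (-0.77, 0.00174), Phc3 (-0.57, 0.00161), Kdm2b (-0.46, 0.0226) and Cbx6 (-0.38, 0.0186). The difference of Aebp2 lost its call without OSMI-1 4 (0.58, adjusted p = 0.0605), that of Kdm2b without ShOgt 1 (0.0526) or ShOgt 5 (0.0588), and that of Cbx6 without the libraries that stand apart (-0.30, 0.0770). Agent, delivery (lentivirus or DMSO) and duration of treatment differ together between the arms and cannot be told apart. Library composition differed as well. The gene Rn45s took at most 1.25% of the reads of any ShOgt or ShLuc library. Its share was at least 4.81% for every OSMI-1 or Vehicle library, with a maximum of 14.2%. Whether composition bears on the differences listed here was not tested.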

How the results depend on the processing

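No called result changed sign under any alternative run, while log2 changes close to 0 that were not called, among them those of Bmi1 and Suz12 in both arms and Cdkn2a after knockdown, took both signs. The 7 member calls held in 19 of 19 alternatives each (Ezh1, Jarid2 and Rbbp4 in the knockdown arm, Ezh2, Eed, Rbbp4 and Rbbp7 in the inhibitor arm), and the arm difference of Eed in 29 of 29. The count of members that fell after knockdown was 1, and 2 under a pseudocount of 5, edgeR, DESeq2, the replicate block, and without the libraries that stand apart. With single libraries left out it ran from 1 to 3, with 3 without ShOgt 6 or ShLuc 3. The added genes were Ezh2 and Rbbp7, called in 5 of 19 alternatives each (Rbbp7 under the replicate block with adjusted p = 0.0199). The replicate block ended the knockdown call of Scml4 (0.0538). Members whose change differed between the arms numbered 1, and 2 without the libraries that stand apart, and ran from 1 to 2 with single libraries left out. Other Polycomb genes that rose after OSMI-1 ran from 3 to 5, with 3 without OSMI-1 6. Classical targets that rose after knockdown numbered 2 with no low-count filter, Cdkn2b and Hoxa3, the second named after its values were seen. For the log2 ratio of Ezh1 to Ezh2 the replicate block gave 1.35 and 1.06 (exact adjusted p = 0.167 in both arms, where 5 pairs cannot go below p = 0.0625). Leaving out the libraries that stand apart gave 1.47 and 1.27 (exact adjusted p = 0.114 and 0.0635). There the unadjusted exact p cannot go below 0.0286 and 0.00794, and both values lay at that floor. Single libraries left out gave 1.19 to 1.41 and 0.98 to 1.23, with adjusted p from 0.0190 to 0.0381. The inhibitor log2 ratio of Ring1 to Rnf2 ran from 0.27 to 0.76 and passed without Vehicle 5 (0.76, exact adjusted p = 0.0423). Same-numbered libraries were correlated by -0.01 to 0.16 and -0.10 to 0.05 in their deviations from the group means, so the numbers were not taken to pair them. The value of 0.16 was that of ShOgt 3 and ShLuc 3, and ShLuc 3 was the best match of ShOgt 3. Both also lay high on principal component 3 (1.84 and 1.82 SD), and whether they share a batch was not tested. Counted over every pair of a single-gene result and an alternative, 1680 kept their side of the threshold, 13 gained a call (all of Ezh2, Rbbp7 or Rnf2) and 32 lost one. Depth limits Ring1, with at most 14 reads per library, and Suz12.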
